A study of Homo sapiens with 6 samples.

Results

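The mitochondrial ribosomal proteins are the protein components of the ribosome inside mitochondria. They were taken here as all protein-coding genes whose symbol in GENCODE release 29 is MRPL or MRPS followed by a number and, in some, a letter. This gave 78 of the 58395 genes in the table, 49 with an MRPL symbol and 29 with an MRPS symbol. They were measured by RNA sequencing in cells of M14, an established human melanoma cell line, grown as floating spheres (melanospheres). The spheres were dissociated and flow sorted with an antibody to CD20, a B-cell surface protein and the product of MS4A1. The groups were 3 CD20-positive and 3 CD20-negative fractions, with no other treatment or genetic change in the labels, so every library comes from 1 cell line in the same culture form. Replicates carry the numbers 1 to 3 in both groups. No label ties a number to its own culture, so the p-values speak to the variation among these 6 libraries, which could be technical.

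The mitochondrial ribosome makes the few proteins that mitochondrial DNA encodes, which are core subunits of the respiratory chain and of ATP synthase. Its ribosomal RNAs are transcribed inside mitochondria, while all of its proteins are encoded in the nucleus, made by cytosolic ribosomes and imported. Many of these proteins descend from bacterial ribosomal proteins, and others are found only in mitochondrial ribosomes. In tumours, mitochondrial translation is studied because cells that rely on respiration depend on it.

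The libraries held 15651172 to 17915936 recovered fragments. MS4A1 averaged 1.16 ± 0.170 FPKM in the CD20-positive group, against 0.297 ± 0.0940 FPKM in the CD20-negative group (SD, n = 3 each). FPKM is the number of fragments divided by exon length in kilobases and by a library size. The B-lineage marker CR2 was at 0 in all libraries. Of 5 markers of other leukocytes, none reached 1 FPKM, with CD3E and CD2 at 0. Of 10 melanocytic markers 3 did, summing to 30.7 to 37.3 FPKM in CD20-positive libraries, against 20.7 to 22.7 FPKM in CD20-negative ones. SOX10, a defining melanocytic factor, averaged 0 FPKM in the CD20-positive group, against 0.0375 FPKM in the CD20-negative group, and MLANA 0.158 FPKM, against 0.146 FPKM in the CD20-negative group. Of the 10 melanocytic genes, PMEL, MITF and GPR143 were the 3 at 1 FPKM or more, and in each of them the groups overlapped. With the replicate number as a block, PMEL was called higher in CD20-positive cells (limma adjusted p = 0.0117), and MITF and GPR143 were not called. GPR143 had 13.4 FPKM in CD20-positive replicate 1 and 9.61 FPKM in CD20-negative replicate 1, against 1.26 to 1.60 FPKM in the other libraries. Epithelial markers at 1 FPKM or more were 4 of 7 (sums of 442 to 504 FPKM in CD20-positive, 333 to 481 FPKM in CD20-negative libraries), and fibroblast markers 2 of 5 (36.4 to 50.7 FPKM in CD20-positive, 25.6 to 34.2 FPKM in CD20-negative libraries). Of these, the fit with the block called KRT17 (limma adjusted p = 0.0184) and PDGFRB (0.0286) higher in CD20-positive cells. KRT8, KRT18, EPCAM and COL1A1 were not called. The mitochondrial genome gave 11.9 to 20.6% of fragments in CD20-positive libraries, against 4.25 to 5.73% in CD20-negative ones. The part of these differences in the results was not tested.

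Of the 78 genes, 74 had a mean of at least 1 FPKM and were tested, 56 reached 10 FPKM and 9 reached 50 FPKM. The median of the tested genes was 17.8 FPKM, against 6.07 FPKM over all 13155 genes tested. Counting precision followed from 77 to 3721 fragments per tested gene and library (median 772).

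Summed over all 78 genes, the level was 2176, 1349 and 1261 FPKM in CD20-positive replicates 1 to 3, against 2366, 1850 and 1786 FPKM in CD20-negative replicates 1 to 3. The CD20-positive library was the lower of each same-numbered pair, with ratios of 0.920, 0.729 and 0.706, but CD20-positive replicate 1 lay above CD20-negative replicates 2 and 3, so the groups overlapped. The CD20-positive mean was 1595 ± 505 FPKM and the CD20-negative mean 2001 ± 318 FPKM (SD, n = 3 each). As a share of all FPKM, the genes took 0.425, 0.399 and 0.316% in CD20-positive libraries, against 0.823, 0.627 and 0.645% in CD20-negative libraries. With the mitochondrial genome left out of the total, it was 0.890, 0.657 and 0.624% in CD20-positive libraries, against 0.979, 0.794 and 0.797% in CD20-negative libraries. In a sorted bulk sample, fewer cells of a type and less RNA per cell cannot be told apart.

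**Figure D1:**
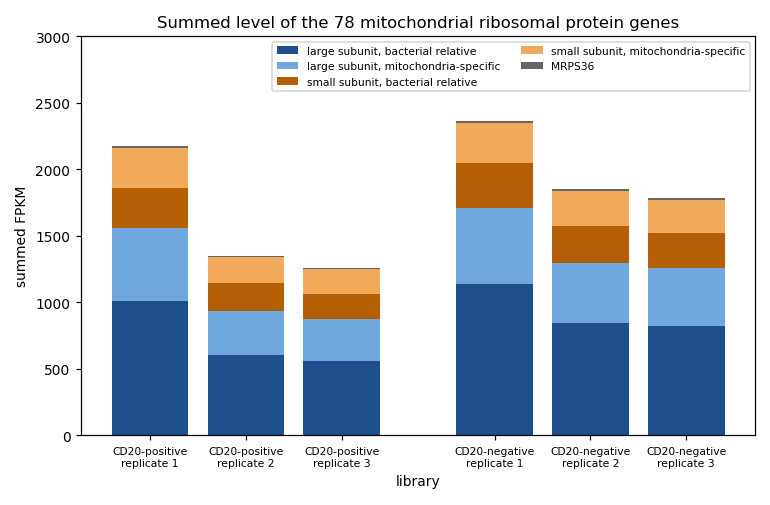
Summed FPKM of the 78 mitochondrial ribosomal protein genes in each library, stacked by role class. CD20-positive replicate 1 (2176 FPKM) stands above the other CD20-positive replicates (1349 and 1261 FPKM), and CD20-negative replicate 1 is likewise the highest of its group.

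Replicate 1 was high for these genes in both groups. It was the highest of its group for 68 of 74 tested genes among CD20-positive libraries and 65 among CD20-negative libraries, 64 of them in both. Over all genes tested the CD20-positive share was 45.4% and the CD20-negative share 42.0%. The median gene in replicate 1 stood at 1.63 times the mean of the other replicates among CD20-positive libraries and 1.37 times among CD20-negative libraries, beside 1.02 (CD20-positive) and 1.01 (CD20-negative) over all genes. Deviations from group means correlated at 0.67, 0.24 and 0.51 between same-numbered libraries 1, 2 and 3. CD20-positive replicate 2 correlated more with CD20-negative replicate 3 (0.40) than with its own number, so the pairing of replicates 2 and 3 is unsure. The comparison was fitted without a block and then with one for the replicate number, called the paired fit here.

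No mitochondrial ribosomal protein gene passed an adjusted p of 0.05 in the fit without the block (limma, Benjamini-Hochberg over all genes tested). In that fit 0.0076% of all genes passed. The lowest adjusted p among the members was 0.471, and 6 of 74 had an unadjusted p under 0.05, where the background over all genes was 9.2%. limma-voom on recovered fragments, without the block, also called 0 members, and it called 0 of all 13141 genes lower. Without both libraries of replicate 1, the fit without the block called 36 of 74 members lower, against 7.45% of all genes.

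In the paired fit, 8 of 74 genes fell in CD20-positive cells, 0 rose and 66 did not pass (limma, adjusted p under 0.05). The 8 are 10.8% of the members, against 2.64% of all genes called lower and 3.19% called higher. The median log2 change over the 74 was -0.33, within a range of -0.71 to 0.37, beside 0.00 over all genes tested. Changes below 0 were seen for 69 of 74 genes (background 49.9%), and 49 were lower in 3 of 3 pairs (background 20.3%). At an unadjusted p under 0.05 in the paired limma fit, 38 were lower (background 10.1%) and 1 higher (background 11.3%). Just 2, MRPL38 and MRPS6, were higher in 3 of 3 pairs (background 21.8%). With values scaled to the FPKM total the change of MRPS6 turned to -0.36, a scaling that also moved the median of all genes below 0. By pair the median was -0.22, -0.37 and -0.46, with 52, 70 and 68 genes lower in the CD20-positive library. The count of 8 became 35 of 74 without the libraries of replicate 1, where 8.54% of all genes were called lower, and 0 without those of replicate 2 or of replicate 3. With the minimum mean raised to 10 FPKM it was 20 of 56 (35.7%, background 11.3%), and with low genes kept in it was 0.

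Groups that did not overlap were rare among these genes: 4 of 74 tested genes had all CD20-positive values under all CD20-negative values, 5.41%, near the background of 6.14%, and 1 lay higher (background 8.87%). Over replicates 2 and 3 only, 66 of 74 were lower without overlap, against 28.8% of all genes.

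**Figure D2:**
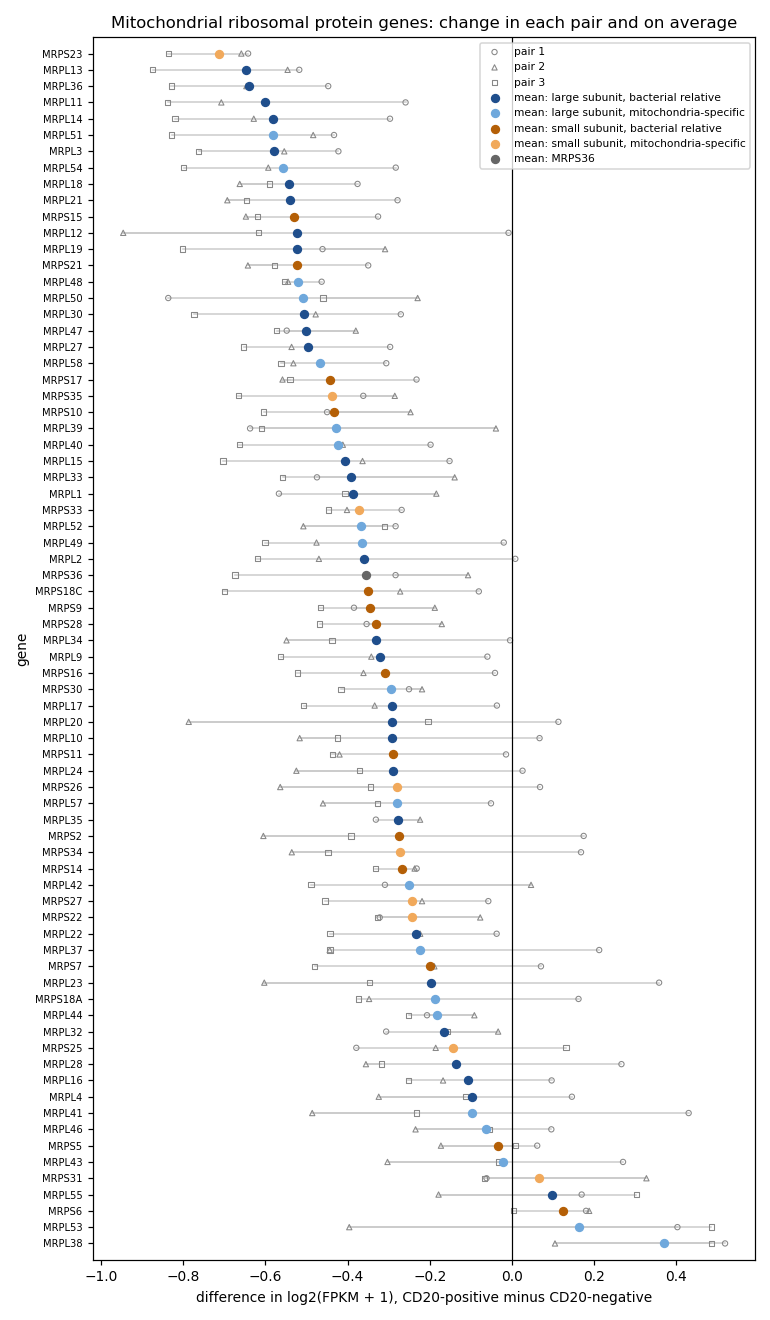
Difference in log2(FPKM + 1), CD20-positive minus CD20-negative, for the 74 tested genes in order of their mean change. Open symbols are the 3 same-numbered pairs and filled points the mean, coloured by role class. Nearly all means lie left of 0, and pair 1 (circles) often lies nearest to 0.

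The gene that fell most was MRPS23 (chr17:57834781-57850056, GRCh38, minus strand), which encodes a small-subunit protein with no bacterial relative. It had 8.44, 4.63 and 3.82 FPKM in CD20-positive replicates 1 to 3, against 13.7, 7.90 and 7.60 FPKM in CD20-negative replicates 1 to 3. Each CD20-positive library was below its partner, while CD20-positive replicate 1 exceeded CD20-negative replicates 2 and 3. The log2 change was -0.71 (SE 0.13, limma paired fit adjusted p = 0.0114, and 0.55 without the block).

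Among large-subunit proteins with a bacterial relative, 5 of 30 fell (16.7%, against 2.64% of all genes) and 25 did not pass. MRPL13, on chromosome 8, had 8.995, 4.79 and 3.65 FPKM in CD20-positive replicates, against 13.3, 7.45 and 7.53 FPKM in CD20-negative replicates. Its log2 change was -0.65 (SE 0.14, limma paired adjusted p = 0.0204). MRPL36, the relative of bacterial L36, a very small zinc-binding protein, had 58.4, 35.2 and 28.0 FPKM in CD20-positive replicates, against 80.0, 55.7 and 50.4 FPKM in CD20-negative replicates. Both genes were lower in every pair, and in both CD20-positive replicate 1 lay inside the CD20-negative range. For MRPL36 the log2 change was -0.64 (SE 0.15, limma paired adjusted p = 0.0332). MRPL3, whose bacterial relative L3 reaches towards the peptidyl transferase centre, had 42.2, 28.0 and 24.9 FPKM in CD20-positive replicates, against 57.0, 41.5 and 42.9 FPKM in CD20-negative replicates. Its log2 change was -0.58 (SE 0.15, limma paired adjusted p = 0.0423).

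MRPL14 and MRPL21 completed this class. The values of MRPL14 were 52.0, 29.7 and 23.7 FPKM in CD20-positive replicates, against 64.1, 46.5 and 42.7 FPKM in CD20-negative replicates, and its limma paired adjusted p was 0.0496. Those of MRPL21 were 26.5, 13.6 and 13.1 FPKM in CD20-positive replicates, against 32.4, 22.7 and 21.1 FPKM in CD20-negative replicates, with an adjusted p of 0.0491 in the same limma fit. The log2 changes were -0.58 (SE 0.16) for MRPL14 and -0.54 (SE 0.14) for MRPL21. Every pair was lower in the CD20-positive library for both, and again replicate 1 made the groups overlap.

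Of the 20 tested large-subunit proteins found only in mitochondrial ribosomes, MRPL48 and MRPL54 fell (10%, against 2.64% of all genes) and 18 did not pass. MRPL48 had 8.01, 5.53 and 4.56 FPKM in CD20-positive replicates, against 11.4, 8.53 and 7.16 FPKM in CD20-negative replicates (log2 change -0.52, SE 0.13, limma paired adjusted p = 0.0384). MRPL54 had 23.9, 12.7 and 10.8 FPKM in CD20-positive replicates, against 29.3, 19.7 and 19.5 FPKM in CD20-negative replicates (log2 change -0.56, SE 0.15, limma paired adjusted p = 0.0459). For both, the CD20-positive library was lower in all 3 pairs and the groups overlapped through replicate 1. Just outside the threshold lay MRPL11, which belongs to the class with a bacterial relative. It had 61.3, 33.1 and 29.9 FPKM in CD20-positive replicates, against 73.5, 54.6 and 54.2 FPKM in CD20-negative replicates (log2 change -0.60, limma paired adjusted p = 0.0509). MRPL51 had 64.4, 46.3 and 32.7 FPKM in CD20-positive replicates, against 87.3, 65.1 and 58.8 FPKM in CD20-negative replicates (log2 change -0.58, limma paired adjusted p = 0.0519), and shares 31.3% of its exon bases with other genes. Both were lower in every pair, with overlap through replicate 1.

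**Figure D3:**
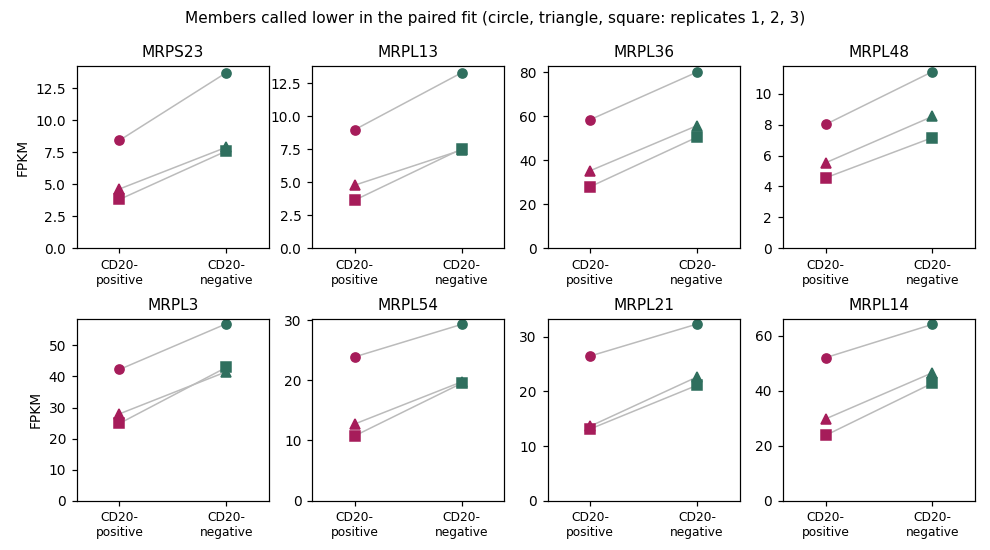
FPKM per library of the 8 genes called lower in the paired fit, each panel with its own axis from 0 and lines joining same-numbered libraries. All lines slope up to the CD20-negative side, and replicate 1 (circles) is the highest in every panel.

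The start-site windows of a few of these genes are printed so that the letters behind the motif counts can be read: MRPS23, MRPL36 and MRPL48 as 3 of the called genes, and MRPL38 as the gene with the most positive change. The windows are from RefSeq (GRCh38.p14), which held one for 69 of the 78 genes, and each shows the 250 bases before the annotated start, 5′ to 3′ on the gene's strand. Capitals mark a match on either strand to CCGGAAG (the core letters bound by ETS factors such as GABP), to AAGATGGC (YY1) or to the NRF1 consensus. These factors are known regulators of nuclear genes for mitochondrial proteins. The windows are chr17:57850045-57850294 (minus strand) for MRPS23, chr5:1799838-1800087 (minus) for MRPL36, chr11:73787624-73787873 (plus) for MRPL48 and chr17:75904885-75905134 (minus) for MRPL38.
MRPS23: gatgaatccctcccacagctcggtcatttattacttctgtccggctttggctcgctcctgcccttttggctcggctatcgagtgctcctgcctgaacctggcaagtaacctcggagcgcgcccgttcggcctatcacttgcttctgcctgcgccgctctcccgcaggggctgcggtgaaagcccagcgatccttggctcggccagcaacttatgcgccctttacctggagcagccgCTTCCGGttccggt
MRPL36: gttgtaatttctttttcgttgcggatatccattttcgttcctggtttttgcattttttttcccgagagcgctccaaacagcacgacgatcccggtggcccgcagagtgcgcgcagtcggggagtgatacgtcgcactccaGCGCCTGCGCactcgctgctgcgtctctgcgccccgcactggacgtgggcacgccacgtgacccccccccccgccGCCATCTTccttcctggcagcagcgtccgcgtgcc
MRPL48: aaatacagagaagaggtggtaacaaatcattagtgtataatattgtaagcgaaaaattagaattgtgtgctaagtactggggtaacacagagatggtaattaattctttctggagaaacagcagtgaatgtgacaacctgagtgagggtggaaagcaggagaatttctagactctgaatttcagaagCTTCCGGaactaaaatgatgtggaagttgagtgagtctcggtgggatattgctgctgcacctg
MRPL38: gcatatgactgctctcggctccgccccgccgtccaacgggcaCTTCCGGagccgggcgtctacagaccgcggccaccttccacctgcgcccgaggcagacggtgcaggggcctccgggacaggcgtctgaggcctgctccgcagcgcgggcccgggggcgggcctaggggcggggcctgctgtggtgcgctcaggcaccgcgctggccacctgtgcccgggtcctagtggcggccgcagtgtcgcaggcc

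In these windows the reverse complement of the ETS letters stood at -14 to -8 from the start of MRPS23, at -63 to -57 from that of MRPL48 and at -208 to -202 from that of MRPL38. MRPL36 held the reverse complements of the NRF1 letters at -110 to -101 and of the YY1 letters at -35 to -28. All 4 printed windows thus hold a match, so they are examples of matches and do not show how common matches are. Of the 69 members with a window, 33 had the NRF1, ETS or YY1 letters wholly before the start. Over the whole 300-base windows, which run to 50 bases after the start, the ETS letters were in 29 of 69 promoters (42.0%), against 10.7% of all 27305 promoters and 20.4% of the 8526 promoters of tested protein-coding genes. The YY1 letters were in 20 of 69 (28.99%), against 3.03% of all and 5.76% of tested promoters, with 5 of the 20 wholly before the start. The NRF1 letters were in 8 (11.6%), against 6.28% of all and 12.4% of tested promoters, and TATAAA in 2 (2.90%), against 11.95% of all and 4.93% of tested promoters. The median log2 change was -0.37 for 28 tested genes with the ETS letters and -0.29 for 37 without, and -0.27 for 16 with the YY1 letters and -0.33 for 49 without. A match is a description of the letters, not of binding.

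The 5 most abundant members, MRPS34, MRPL41, MRPL34, MRPL17 and MRPL51, were not called. MRPS34 had 158, 85.6 and 81.9 FPKM in CD20-positive replicates, against 141, 125 and 112 FPKM in CD20-negative replicates (log2 change -0.27, limma paired adjusted p = 0.464). MRPL41 had 136, 64.3 and 71.1 FPKM in CD20-positive replicates, against 101, 90.4 and 83.8 FPKM in CD20-negative replicates (log2 change -0.10, limma paired adjusted p = 0.838). In both, CD20-positive replicate 1 was the highest of all libraries and CD20-positive replicates 2 and 3 the lowest. MRPL34 (log2 change -0.33) and MRPL17 (-0.29) were likewise not called.

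The stalk proteins, which recruit translation factors, and single members with known roles followed. MRPL10 had 20.7, 13.1 and 13.6 FPKM in CD20-positive replicates, against 19.7, 19.2 and 18.7 FPKM in CD20-negative replicates (log2 change -0.29). MRPL12 had 31.5, 14.4 and 14.4 FPKM in CD20-positive replicates, against 31.7, 28.8 and 22.6 FPKM in CD20-negative replicates (log2 change -0.52, limma paired adjusted p = 0.115), but 68.2% of its exon bases lie in another annotated gene on the same strand. For MRPL10 and MRPL12, replicate 1 was nearly level between the groups and replicates 2 and 3 were lower in CD20-positive cells. MRPL11, the stalk gene given above, was lower in all pairs, with log2 differences of -0.26, -0.71 and -0.84. MRPL58, a peptidyl-tRNA hydrolase built into the large subunit, had 39.4, 25.1 and 23.3 FPKM in CD20-positive replicates, against 49.0, 36.7 and 34.9 FPKM in CD20-negative replicates (log2 change -0.47, limma paired adjusted p = 0.082). MRPS36, assigned to the oxoglutarate dehydrogenase complex rather than the ribosome, had a log2 change of -0.35 (limma paired adjusted p = 0.191).

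MRPS30 sits in the large subunit in spite of its symbol. It had 16.4, 16.1 and 14.8 FPKM in CD20-positive replicates, against 19.7, 18.9 and 20.1 FPKM in CD20-negative replicates (log2 change -0.30). Its groups did not overlap, and the two-sided exact permutation test gave p = 0.1, the smallest that 3 against 3 allows. MRPS21, MRPL50 and MRPL35, chosen after their values were seen, also had no overlap, with log2 changes of -0.52, -0.51 and -0.28. The opposite pattern was seen in MRPL38, also chosen after its values were seen, a large-subunit protein specific to mitochondria. It had 2.22, 1.79 and 2.31 FPKM in CD20-positive replicates, against 1.25, 1.59 and 1.37 FPKM in CD20-negative replicates (log2 change 0.37, limma paired adjusted p = 0.18). It was higher in every pair, and 41.1% of its exon bases are shared with other genes.

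The most positive changes among members of at least 10 FPKM were in both subunits. MRPS6 had 15.3, 17.4 and 14.1 FPKM in CD20-positive replicates, against 13.4, 15.2 and 14.02 FPKM in CD20-negative replicates (log2 change 0.12). MRPS5 had 12.01, 11.6 and 12.3 FPKM in CD20-positive replicates, against 11.5, 13.2 and 12.2 FPKM in CD20-negative replicates (log2 change -0.03). The groups overlapped in both. The log2 changes of MRPL55, MRPL43, MRPL4 and MRPL41 were 0.10, -0.02, -0.10 and -0.10, all not called, and MRPL43 shares 36.9% of its exon bases. Of the MRPS18 paralogs, which take different places in the ribosome, MRPS18A had a log2 change of -0.19 and MRPS18C of -0.35, neither called. Exons shared with other genes cover 47.0% of MRPS18A and 40.2% of MRPS18C.

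The remaining 4 members were under the filter. MRPS24 had 0.481, 0.454 and 0.775 FPKM in CD20-positive replicates, against 0.570, 0.773 and 0.658 FPKM in CD20-negative replicates (two-sided exact permutation p = 0.6). Of the exon bases of MRPS24, 23.2% lie in another annotated gene on the same strand. MRPL45 rested on 7, 7 and 2 fragments in CD20-positive libraries, against 10, 11 and 11 fragments in CD20-negative libraries. MRPS12, the decoding-centre protein, was listed at 0 in all libraries but CD20-negative replicate 1, at 0.0496 FPKM. SARS2, which overlaps MRPS12 on the other strand, was listed at 0 in all 6 libraries, so the zeros of MRPS12 are given only as listed. MRPS18B was listed at 0 in all 6. Within 500000 bases of MRPS18B, 26 of 31 protein-coding genes were listed at 0 in all libraries, tubulin gene TUBB among them, against 20.5% of all protein-coding genes, so its 0 is given only as listed.

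By role class the median log2 change was -0.37 for 30 large-subunit proteins with a bacterial relative, -0.29 for 20 large-subunit proteins specific to mitochondria, -0.32 for 14 small-subunit proteins with a bacterial relative and -0.27 for 9 small-subunit proteins specific to mitochondria. Large-subunit genes were below 0 in 47 of 50 cases with 7 called, and small-subunit genes in 21 of 23 with 1 called. The shares called were 14% (large) and 4.35% (small), against 2.64% of all genes called lower. Of all genes tested, 49.9% were below 0. None of the 14 small-subunit genes with a bacterial relative was called. The nearest of them was MRPS15, chosen after its values were seen, at 33.4, 17.0 and 17.4 FPKM in CD20-positive replicates, against 42.2, 27.3 and 27.2 FPKM in CD20-negative replicates (log2 change -0.53, limma paired adjusted p = 0.0504). It too was lower in every pair, with replicate 1 high in both groups. The difference between subunits was not tested.

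Ribosomal proteins outside the naming pattern, the ribosome's own RNA and its helpers gave mixed values. DAP3, a small-subunit GTP-binding protein, had 21.2, 19.0 and 18.1 FPKM in CD20-positive replicates, against 19.8, 20.1 and 19.8 FPKM in CD20-negative replicates (log2 change -0.03). PTCD3 (log2 change 0.13), AURKAIP1 (-0.22), GADD45GIP1 (-0.43) and CHCHD1 (-0.52, limma paired adjusted p = 0.0504) were not called either. The 2 mitochondrial ribosomal RNAs rose in the paired fit. MT-RNR1 averaged 2155 FPKM in the CD20-positive group, against 631 FPKM in the CD20-negative group (log2 change 1.75, limma paired adjusted p = 0.0103), and MT-RNR2 averaged 14757 FPKM in the CD20-positive group, against 3309 FPKM in the CD20-negative group (log2 change 2.20, limma paired adjusted p = 0.0204). Without the block their adjusted p was 0.229 each. Poly(A)-selected libraries do not measure ribosomal RNA evenly.

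Of 27 tested assembly factors 1 fell, 0 rose and 26 did not pass (median log2 change -0.12), and of 16 translation factors none passed (median -0.16). The share of assembly factors called lower was 3.70%, near the 2.64% of all genes. The factor that fell was NDUFAB1, the mitochondrial acyl carrier protein, at 59.9, 36.6 and 24.5 FPKM in CD20-positive replicates, against 85.1, 56.3 and 49.9 FPKM in CD20-negative replicates (log2 change -0.70, limma paired adjusted p = 0.0268). METTL17, an assembly factor, had 14.5, 17.3 and 20.7 FPKM in CD20-positive replicates, against 12.6, 12.9 and 11.5 FPKM in CD20-negative replicates (log2 change 0.46, adjusted p = 0.097 in the limma paired fit). MALSU1, a ribosome-silencing factor, had a log2 change of -0.47 and MTRF1L, a release factor, of -0.42, neither called. MTFMT, which formylates the initiator methionyl-tRNA, had a log2 change of -0.52 and also missed the threshold, as did C6orf203 at -0.21.

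Related gene lists moved by different amounts. Of 79 tested cytosolic ribosomal protein genes 44 fell, 0 rose and 35 did not pass in the paired fit, with a median log2 change of -0.85. Of 69 nuclear genes for respiratory chain and ATP synthase subunits 27 fell, with a median of -0.55, and 42 did not pass. All 13 mitochondrially encoded protein genes were higher, 9 of them called, with a median of 1.82. Shares called lower were 55.7% of the cytosolic ribosomal protein genes and 39.1% of the nuclear subunit genes. Over all genes tested, 2.64% were called lower and 3.19% higher. The mitochondrial ribosomal proteins, at -0.33, lay between the cytosolic ribosomal proteins and the median of all genes. These medians are descriptions over the same libraries, and no difference between lists was tested.

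**Figure D4:**
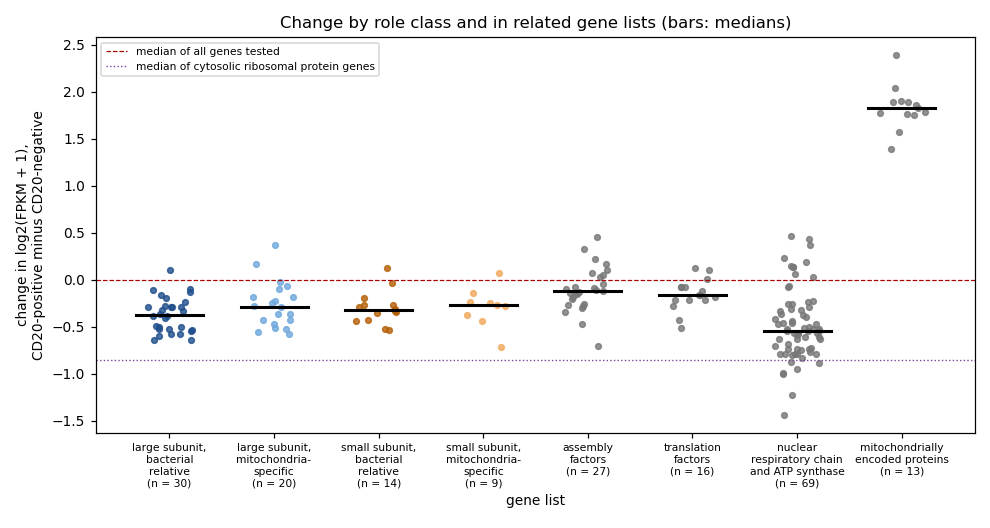
Change in log2(FPKM + 1), CD20-positive minus CD20-negative, for each tested gene of 8 lists, with black bars at the medians. The 4 classes of mitochondrial ribosomal protein genes sit mostly between the median of all genes (dashed) and that of the cytosolic ribosomal proteins (dotted), and the mitochondrially encoded genes sit far above.

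Several members neighbour another gene head to head. A protein-coding gene starting within 1000 bases on the other strand was found for 17 of 78 members (21.8%), against 7.39% of protein-coding genes. The 12 tested partners that are not members had a median log2 change of 0.19. MRPL27 had a log2 change of -0.50 and its partner EME1, which starts 6 bases away and encodes a DNA repair nuclease subunit, one of 0.62 (limma paired adjusted p = 0.0222). EME1 was the only one of the 12 partners called, and 11 did not pass (3.19% of all genes were called higher). For MRPL36 and its partner NDUFS6, a complex I subunit, the log2 changes were -0.64 and -0.75. Starts here are those of the GENCODE genes. For MRPL36 that start, chr5:1801366, lies outside the RefSeq window printed above (chr5:1799838-1800087). The same holds for MRPL48 (chr11:73787316) and MRPL38 (chr17:75905413), whose GENCODE starts also lie upstream of their printed windows. Motif positions given above count from the RefSeq starts and would differ from the GENCODE starts. Counting may split reads with 75 pseudogenes named after 34 members. Those pseudogenes summed to 0.145 to 0.467% of the members' own level.

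The exons of these genes are short. Members had a median summed exon length of 2544 bases, against 4290 bases over all genes tested. Spearman's rho between exon length and log2 change was 0.252 over the 74 genes and 0.155 over all 13141 genes with a length, given as descriptions since the genes share the same 6 libraries. With a correction for exon length the median change of the members was -0.27, with 3 called in the paired fit.

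**Figure D5:**
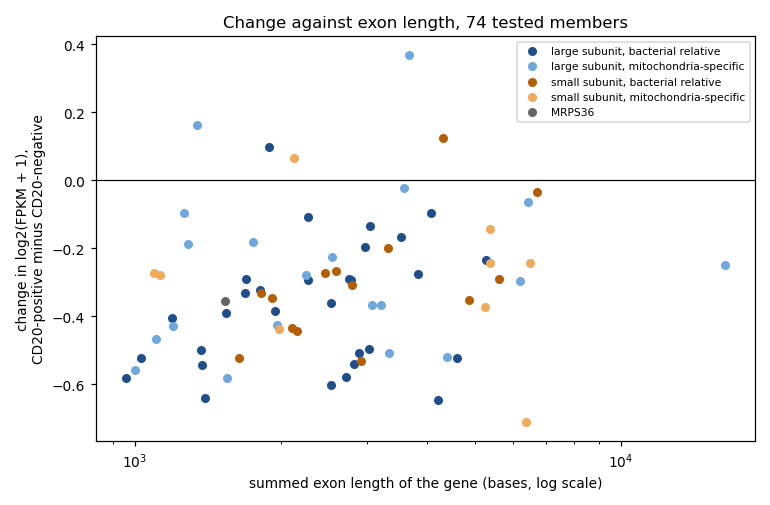
Change in log2(FPKM + 1), CD20-positive minus CD20-negative, against summed exon length (log scale) for the 74 tested genes, coloured by role class. Values near -0.6 are found at short and at long exon lengths, and Spearman's rho is 0.252.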

How the data were processed

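RNA of 6 sorted fractions was sequenced from poly(A)-selected libraries, per the labels' protocols. HISAT2, featureCounts 1.5.0 and DESeq2 were used on GRCh38 (hg38), per the submitters' processing notes. Settings, strand use included, are not given in the sources used. The deposited table has no unit in its header. From its values the authors deposited FPKM: multiplied by GENCODE release 29 exon length, 98.1 to 98.6% of low values (up to 20 fragments, tolerance 0.02) were whole fragments. Of its identifiers 58275 matched that release and 120 did not.

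The 13155 genes averaging 1 FPKM or more were tested on the log2(FPKM + 1) scale (limma 3.58.1, R 4.3.3, trend and robust prior), two-sided, CD20-positive minus CD20-negative, Benjamini-Hochberg threshold 0.05. Such fold changes understate those of low genes. The test was tried on simulated data, where the deviation of a replicate number was drawn separately for each gene. That differs from replicate 1 here, which was high for most members, so the trial does not bear on their calls. Replicate numbers were also used as a block: deviations from group means correlated at 0.67, 0.24 and 0.51 between same-numbered libraries, all over 0.1. Replicates 2 and 3 correlated across numbers too (0.43 and 0.40), above the 0.24 between the libraries numbered 2, so their pairing is unsure.

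The members and lists were chosen with earlier results of these data known. The summed level of the B-lineage marker list is not reported here. Named genes were the 5 most abundant members, the 6 most negative and 6 most positive in change at 10 FPKM or more, up to 8 called per direction, those under the filter, members with stated roles, named mitoribosomal genes outside the pattern, and up to 3 factors per list. Alternatives covered the filter, pseudocount, scaling, prior, block, exon length, voom on recovered fragments, and left-out libraries.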

Additional observations from a re-analysis of the deposited data

How the results depend on the processing

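Without the replicate block, the count of members called was 0. It was 8 with the replicate block, 40 with values scaled to the FPKM total (all genes called lower 10.3%), 0 to 0 on leaving out any 1 library, and 0 to 36 on leaving out both libraries of a replicate, an alternative chosen after seeing the data, with 36 without replicate 1 (all genes 7.45%). In the paired fit the count was 8, all lower (all genes called lower 2.64%, and the like share follows each count). It was 20 of 56 at a minimum of 10 FPKM (11.3%), 0 with no filter (0%), 5 with a pseudocount of 10 (2.13%), 67 scaled to the FPKM total (29.1%), 3 scaled to that total without the mitochondrial genome (1.96%), 15 with median-of-ratios scaling (3.06%), 16 with quantile normalisation (3.27%), 3 with a plain prior (1.60%), 22 with voom (5.42%), 3 with the exon-length correction (1.74%) and 0 with each gene's own spread only (0%). Leaving out both libraries of a replicate gave 0 to 35, with 35 without replicate 1 (8.54%), 0 without replicate 2 (0.0076%) and 0 without replicate 3 (1.19%). Over these 15 alternatives to the paired fit, the 8 called genes gave 117 values, of which 65 stayed called, 52 did not and 0 changed sign. No setting called a member higher. The median log2 change was -0.33 and -0.80 scaled to the FPKM total, where that of all genes was -0.41. Without the mitochondrial genome in the total it was -0.23, with all genes at 0.09. Leaving out 1 library gave -0.55 to -0.20, and both libraries of a replicate -0.43 to -0.25. The log2 ratio of summed levels was -0.33, -0.88 as a share of the FPKM total, and -0.62 to -0.18 on leaving out 1 library. The cause of these shifts was not tested.

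For the fit without the block, in which none of the 39 named genes tested was called, 695 values under alternatives were compared with it: 635 kept direction and stayed uncalled, 39 kept direction and were called, and 21 changed sign. Scaled to the FPKM total, METTL17 was at -0.024, MRPL55 at -0.38, MRPS6 at -0.36 and PTCD3 at -0.35. Without the mitochondrial genome in that total, DAP3 was at 0.066, MRPL41 at 0.0073, MRPL43 at 0.078 and MRPS5 at 0.063. MRPL41 was at 0.016 with quantile normalisation and 0.0054 with the exon-length correction. Leaving out 1 library gave -0.60 to 0.023 for AURKAIP1, -0.096 to 0.013 for DAP3, -0.28 to 0.024 for MRPL4, -0.43 to 0.11 for MRPL41, -0.32 to 0.16 for MRPL43, -0.015 to 0.24 for MRPL55, -0.079 to 0.014 for MRPS5 and -0.00035 to 0.33 for PTCD3. MRPL45 and MRPS12 had at most 11 fragments a library and have no fitted change.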
